A study of Homo sapiens with 12 samples.

Results

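Interferon-stimulated genes are the genes that cells switch on after type I interferon binds its receptor. The set described here holds 43 such genes, chosen by name from the well-known members of the response, and all 43 were found among the 26641 genes of the count table. They were followed across 12 RNA-seq libraries of NCCIT, a human embryonal carcinoma cell line, to see whether activating LTR5HS, the long terminal repeat of the youngest HERVK endogenous retroviruses, was accompanied by an interferon response. Each of 6 transgenic lines carried a doxycycline-inducible, catalytically dead S. pyogenes Cas9 (dCas9) and an array of 12 guide RNAs, both inserted with PiggyBac transposons and kept by drug selection. The dCas9 was fused to the activator VPR (CRISPRa) or to the repressor KRAB (CRISPRi). The LTR5HS Sp array recruits the fusion to LTR5HS, and those lines are called recruitment lines below. Both other arrays served as controls: LTR5HS Sa carries the same guides on an S. aureus scaffold that S. pyogenes dCas9 does not bind, and nontarget Sp carries guides that pair with no human sequence. All lines, controls included, received doxycycline for 4 days, and each line gave 2 replicates. One line was made per combination of fusion and array, so an effect of an array cannot be told apart from a difference between separately selected lines.

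In the textbook pathway, foreign or misplaced nucleic acid is detected by sensors such as RIG-I, MDA5, LGP2 and cGAS, which lead to production of interferon. Interferon bound to its receptor activates the kinases JAK1 and TYK2, and a complex that contains STAT2 and IRF9 then binds the interferon-stimulated response element in the promoters of its targets. The targets encode antiviral proteins, more of the sensors and signalling factors, and feedback inhibitors. Pluripotent and embryonal carcinoma cells are known for a weak interferon system.

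The element that marks these promoters was searched as GAAA, any 2 bases, then GAAA, on either strand, so that it may read TTTC, any 2 bases, then TTTC, in the 300 bases from 250 before to 50 after each gene start in RefSeq (GRCh38.p14). Of the 43 genes, 34 matched an entry, and 22 of these 34 promoters (64.7%) held the element, against 3.57% of all 35116 promoters in the table. The stretches below lie upstream of the start and are shown because they carry the element in genes that went in opposite directions with CRISPRa. Each is written 5′ to 3′ along the strand of its gene, with the element in capitals.
GBP1, chr1:89065316-89065345, minus strand: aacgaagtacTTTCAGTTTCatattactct
EPSTI1, chr13:42992272-42992301, minus strand: ctgattctgaGAAACCGAAActcagctgtt
ISG15, chr1:1013377-1013406, plus strand: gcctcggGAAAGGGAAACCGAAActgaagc
BST2, chr19:17405738-17405767, minus strand: tttctggGAAACTGAAACTGAAAacctaat
IFIT1, chr10:89392504-89392532, plus strand: tagTTTCACTTTCcccTTTCGGTTTCcct
GBP1 and EPSTI1 were higher with CRISPRa, and ISG15, BST2 and IFIT1 were lower. The ISG15, BST2 and IFIT1 promoters each held the element at 2 positions, overlapping in ISG15 and BST2. By call, the element was found in 3 of the 5 genes that rose, 8 of the 11 that fell, 7 of the 15 that were tested without passing and 4 of the 12 not tested, with genes lacking an entry counted as without it.

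The libraries held 13601701 to 69797411 counts. The deepest, replicate 2 of dCas9-KRAB nontarget Sp, stood apart, the next holding 24840708 counts. Replicates of a line correlated at r = 0.991 to 0.995 over log2 CPM, which scales counts to library size. The 10 embryonal carcinoma markers were all lower in dCas9-VPR than in dCas9-KRAB control libraries, with summed levels of 1070 to 1976 CPM against 3957 to 4344 CPM. All 10 passed the edgeR test described below, in a comparison where 59.1% of all genes passed, 30.3% lower with dCas9-VPR. Leukocyte markers summed to 7.91 to 11.9 CPM over all groups, with PTPRC and CD3E at or near 0. Summed fibroblast markers, led by COL1A1, reached 3062 to 3181 CPM in dCas9-VPR recruitment libraries against 120 to 184 CPM in their controls. Of these 8 markers, 6 were tested with CRISPRa as described below. Log2 fold changes ran from -1.59 to 5.41, and 4 rose while 2 did not pass, where 15.7% of all genes rose. The part of these marker differences in the results below was not tested. In bulk RNA, fewer cells expressing a gene and less RNA per cell cannot be told apart.

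Most of the genes were low in control libraries. Between genes, levels were compared as CPM per kilobase of gene length. The median over the 43 genes was 0.532 CPM per kb, against 6.10 CPM per kb over the genes tested with CRISPRa, and 8 of the 43 lay above that median. The highest were BST2 (tetherin, which holds budding virus at the cell surface) at 95 CPM per kb, IFITM3 at 69.9 CPM per kb and IFITM1 at 51.0 CPM per kb, followed by ISG15 at 33.5, IFI6 at 23.1, STAT2 at 19.9, EIF2AK2 at 10.7 and IRF9 at 7.89 CPM per kb. In 12 genes the counts were too low to be tested with either fusion: IFIH1 (MDA5), OAS1, OAS2, OASL, MX2, RSAD2 (viperin), SAMD9L, IFI44, IFI44L, XAF1 and the chemokines CXCL10 and CXCL11. None of these 12 exceeded 16 counts in any library, recruitment libraries included. Without a filter on low counts, 42 of the 43 genes were tested with CRISPRa by edgeR and the same 16 passed as described below. CXCL10, among the most strongly interferon-induced genes in many cell types, was at 0 counts in all 6 dCas9-VPR libraries. Over the 12 libraries, the 3 counts that a count of 0 allows correspond to 0.0455 to 0.233 CPM.

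With CRISPRa, the genes did not move together. Of the 31 tested, 5 rose and 11 fell by edgeR's quasi-likelihood test at a Benjamini-Hochberg adjusted p below 0.05, in a comparison where 28.0% of all genes passed, 15.7% higher and 12.3% lower. The median log2 fold change over the 31 genes was -0.69, against -0.02 over all genes tested, with 9 above 0 and 22 below. Those that rose were GBP1, MX1, EPSTI1, STAT2 and USP18. Those that fell were OAS3, DHX58, BST2, IFITM1, IFI35, TRIM22, IFIT1, IFITM3, IFI6, ISG15 and IFIT5. The other 15 ranged from -1.36 to 0.28. Recruitment and control libraries did not overlap in 6 genes that were higher and 15 that were lower with recruitment, shares that were 25.5% and 24.4% over all genes tested. The 43 genes summed to 635 and 578 CPM with recruitment, 437 and 412 CPM with LTR5HS Sa, and 595 and 610 CPM with nontarget Sp. Without GBP1, the rest of the set summed to 439 and 429 CPM with recruitment, 436 and 412 CPM with LTR5HS Sa, and 594 and 610 CPM with nontarget Sp. Of these sums, STAT2 held 197 and 213 CPM with recruitment and 86.7 to 99.3 CPM in the controls. The calls rest on few recruitment libraries: without replicate 1 of LTR5HS Sp 10 genes passed, and without replicate 2 there were 7, while the share of all genes fell to 13.8% in both cases. With library totals in place of TMM factors, all genes split into 2089 higher and 3071 lower instead of 2552 and 1996, and the set into 5 higher and 13 lower, which included the 16 genes above.

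**Figure D1:**
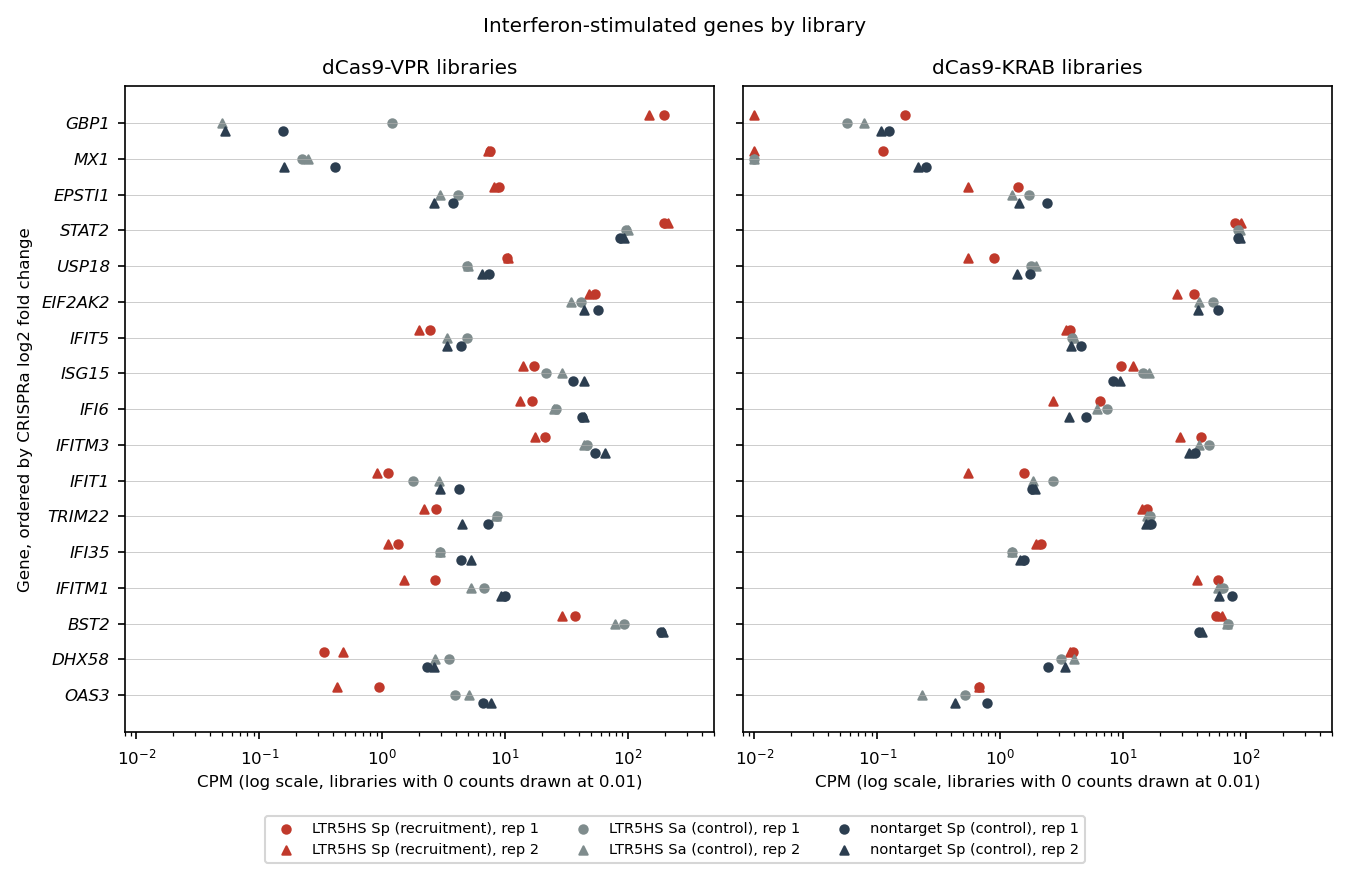
Level of 17 interferon-stimulated genes in each library, in CPM on a log scale, for dCas9-VPR (left) and dCas9-KRAB (right), with colours for the arrays, circles for replicate 1 and triangles for replicate 2. GBP1 stood at 196 and 149 CPM in the dCas9-VPR recruitment libraries and at 1.20 CPM or less in their controls, while OAS3 and DHX58 lay below their controls.

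Among the signalling factors, STAT2, part of the complex that binds the response element, was the 1 of 3 that changed. It lies at chr12:56341597-56360203 on the minus strand (hg38, GENCODE 44). STAT2 measured 197 and 213 CPM in the recruitment libraries, 96.5 and 99.3 CPM with LTR5HS Sa, and 86.7 and 92.6 CPM with nontarget Sp. Both recruitment libraries lay above all 4 controls, and the rise was 1.13 ± 0.10 on the log2 scale (SE, edgeR adjusted p = 0.000118), a 2.19-fold difference of means. IRF9, the DNA-binding subunit of the same complex, had a log2 fold change of -0.01, and IRF7, which amplifies interferon production, of -0.30, and neither passed.

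Of the RNA sensors, DHX58 (LGP2, a regulator of RIG-I and MDA5) fell, and DDX58 (RIG-I) did not pass, at 0.28. DHX58 was at 0.334 and 0.481 CPM with recruitment against 3.48 and 2.68 CPM with LTR5HS Sa and 2.32 and 2.63 CPM with nontarget Sp. The groups did not overlap, and the change was -2.75 ± 0.35 on the log2 scale (SE, edgeR adjusted p = 0.000722). OAS3, an oligoadenylate synthetase that activates RNase L, was at 0.946 and 0.428 CPM with recruitment, 3.92 and 5.06 CPM with LTR5HS Sa, and 6.55 and 7.67 CPM with nontarget Sp. Its log2 change of -3.07 ± 0.42 (SE, edgeR adjusted p = 0.00114) was the lowest among the 31 genes. EIF2AK2 (PKR, which halts translation on double-stranded RNA) measured 54.2 and 48.2 CPM with recruitment, 41.6 and 34.3 CPM with LTR5HS Sa, and 57.3 and 44 CPM with nontarget Sp. These groups overlapped, and its log2 fold change of 0.21 did not pass (edgeR adjusted p = 0.431).

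The IFIT genes, whose proteins bind foreign RNA, lie side by side on chromosome 10, and 2 of the 4 fell. IFIT1 was at 1.11 and 0.908 CPM with recruitment, 1.78 and 2.88 CPM with LTR5HS Sa, and 4.23 and 2.94 CPM with nontarget Sp, a log2 change of -1.54 ± 0.38 (SE, edgeR adjusted p = 0.0184). IFIT5 was at 2.45 and 1.98 CPM with recruitment, 4.86 and 3.38 CPM with LTR5HS Sa, and 4.33 and 3.36 CPM with nontarget Sp, a log2 change of -0.85 ± 0.26 (SE, edgeR adjusted p = 0.0418). In both genes the recruitment libraries were the lowest of the 6. IFIT2 (-1.36) and IFIT3 (-0.51) did not pass.

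The IFITM proteins block virus entry at membranes, and IFITM1 and IFITM3 fell. IFITM3 was at 21.1 and 17.6 CPM with recruitment, 46.4 and 44 CPM with LTR5HS Sa, and 53.8 and 64.8 CPM with nontarget Sp, a log2 change of -1.43 ± 0.18 (SE, edgeR adjusted p = 0.000793). IFITM1 was at 2.67 and 1.5 CPM with recruitment, 6.69 and 5.26 CPM with LTR5HS Sa, and 9.96 and 9.30 CPM with nontarget Sp, a log2 change of -1.90 ± 0.36 (SE, edgeR adjusted p = 0.00519). Neither gene's groups overlapped. IFITM2 had a log2 fold change of -0.69 and did not pass. IFIT, IFITM, OAS, MX and GBP genes have close paralogs, and how reads that fit several of them were counted is not given in the sources used here, so the split among paralogs is uncertain.

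Both of the largest rises were in antiviral GTPases. GBP1, a guanylate-binding protein best known as a target of interferon-gamma, lies at chr1:89051882-89065360 on the minus strand. It was at 196 and 149 CPM with recruitment, 1.20 and 0.0497 CPM with LTR5HS Sa, and 0.155 and 0.0526 CPM with nontarget Sp. In counts these were 3516 and 2781, then 27 and 1, then 3 and 1, so the gene went from near absence to a level above that of most of the set. Its log2 fold change was 8.76 ± 0.56 (SE, edgeR adjusted p = 1.90e-05). Replicate 1 of LTR5HS Sa was the highest control, at 0.699% of the recruitment mean, and was also the highest control for 33 of the 47 genes with a log2 fold change above 6. Without it, the change in GBP1 was 10.87.

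MX1, a dynamin-like GTPase, lies at chr21:41420020-41470071 on the plus strand. It was at 7.46 and 7.27 CPM with recruitment, 0.223 and 0.248 CPM with LTR5HS Sa, and 0.413 and 0.158 CPM with nontarget Sp, from 134 and 136 counts against 3 to 8 counts. MX1 rose by 4.79 ± 0.30 on the log2 scale (SE, edgeR adjusted p = 1.80e-05). Its neighbour MX2 was too low to be tested, with 6 and 4 counts in the recruitment libraries and at most 2 in a control.

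BST2 and TRIM22, an E3 ubiquitin ligase of the TRIM family, fell. BST2 was at 37.2 and 29.2 CPM with recruitment, 93.2 and 79.0 CPM with LTR5HS Sa, and 184 and 192 CPM with nontarget Sp, a log2 change of -2.04 ± 0.40 (SE, edgeR adjusted p = 0.00613). TRIM22 was at 2.73 and 2.19 CPM with recruitment, 8.56 and 8.49 CPM with LTR5HS Sa, and 7.22 and 4.42 CPM with nontarget Sp, a log2 change of -1.54 ± 0.32 (SE, edgeR adjusted p = 0.00825). In both genes the recruitment libraries lay below all controls, but for BST2 the control arrays also lay far apart. The exonuclease ISG20 (-0.19), CMPK2 (0.16) and SAMD9 (0.04) did not pass.

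The ubiquitin-like protein ISG15 and the protease that removes it from its targets, USP18, went in opposite directions. ISG15 was at 17.3 and 14.1 CPM with recruitment, 21.6 and 29.0 CPM with LTR5HS Sa, and 35.4 and 43.7 CPM with nontarget Sp, a log2 change of -1.05 ± 0.27 (SE, edgeR adjusted p = 0.0210). USP18, which also restrains signalling at the interferon receptor, was at 10.4 and 10.5 CPM with recruitment, 4.86 and 4.97 CPM with LTR5HS Sa, and 7.43 and 6.47 CPM with nontarget Sp. USP18 rose by 0.82 ± 0.21 on the log2 scale (SE, edgeR adjusted p = 0.0211). In neither gene did the groups overlap. HERC5, the main ligase for ISG15, had a log2 fold change of -0.60 and just missed the threshold (edgeR adjusted p = 0.0508), which it passed with the replicate number as a block (-0.59, edgeR adjusted p = 0.0464). HERC6 (-1.21), DTX3L (-0.73) and PARP9 (-0.71) did not pass. DTX3L and PARP9 are neighbours, and the protocol describes no strand marking, so reads from overlapping transcripts cannot be told apart.

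In the remaining group, EPSTI1 rose while IFI6 and IFI35 fell. EPSTI1 was at 8.96 and 8.18 CPM with recruitment, 4.10 and 2.93 CPM with LTR5HS Sa, and 3.77 and 2.63 CPM with nontarget Sp, a log2 change of 1.35 ± 0.22 (SE, edgeR adjusted p = 0.00287). IFI6, a membrane protein, was at 16.6 and 13.2 CPM with recruitment, 26.1 and 25.1 CPM with LTR5HS Sa, and 41.8 and 43.4 CPM with nontarget Sp, a log2 change of -1.19 ± 0.27 (SE, edgeR adjusted p = 0.0122). IFI35 was at 1.34 and 1.12 CPM with recruitment, 2.94 and 2.93 CPM with LTR5HS Sa, and 4.39 and 5.31 CPM with nontarget Sp, a log2 change of -1.65 ± 0.34 (SE, edgeR adjusted p = 0.00816). The groups did not overlap in any of these 3 genes. IFI27 had a log2 fold change of -0.21 and did not pass.

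**Figure D2:**
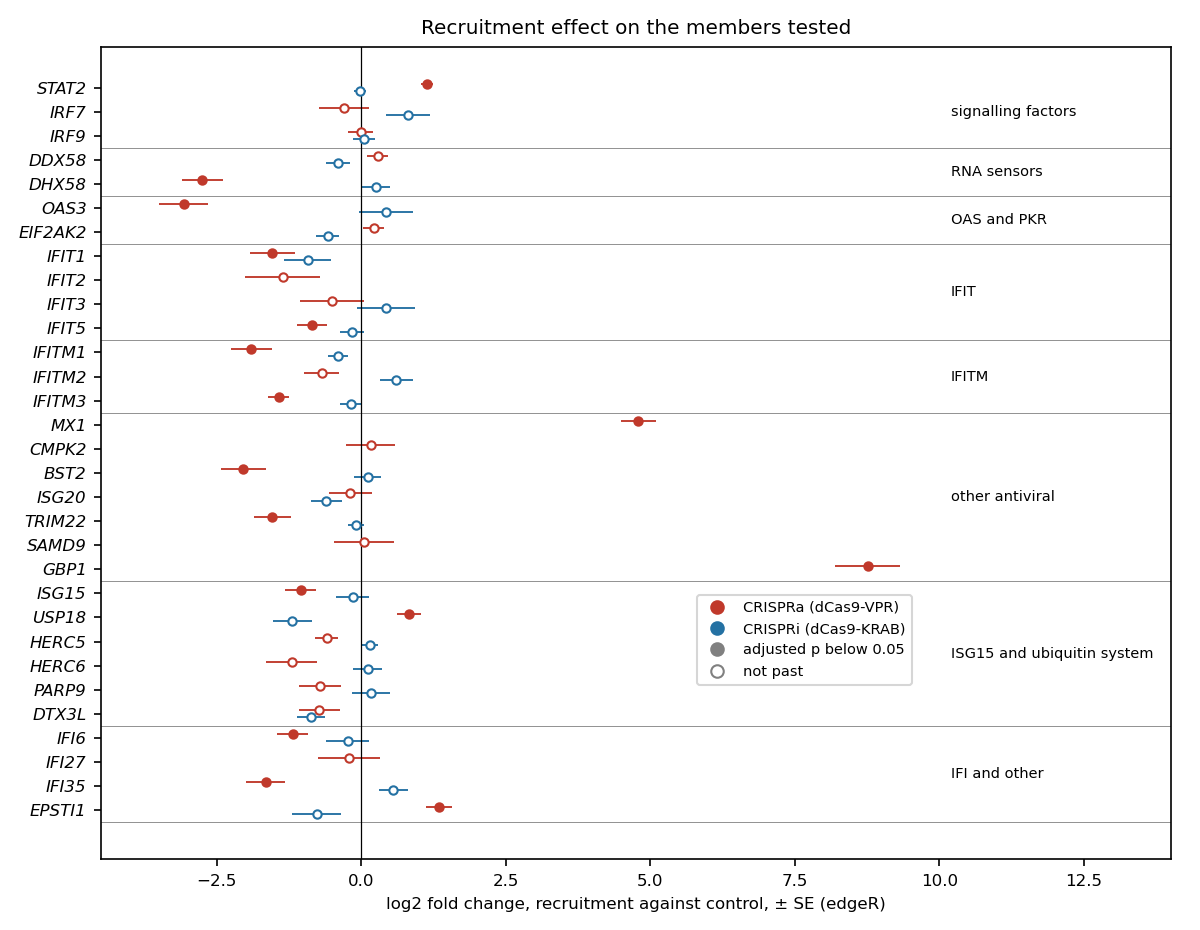
Log2 fold change of recruitment against control, with its SE derived from edgeR's F statistic, for each gene tested, grouped by role. CRISPRa is in red and CRISPRi in blue, with filled points for an edgeR adjusted p below 0.05. Filled points lie on both sides of 0 for CRISPRa, and no CRISPRi point is filled.

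The calls that held under every alternative run for them were GBP1, MX1, STAT2, EPSTI1, IFITM3, DHX58 and OAS3. Leaving out replicate 2 of LTR5HS Sp ended the calls of BST2, IFITM1 and TRIM22. Leaving out either recruitment library ended those of ISG15, IFI6, IFIT1, IFI35, IFIT5 and USP18, with edgeR adjusted p reaching 0.155 for ISG15 and 0.247 for IFIT5. The calls of IFIT5 and USP18 also ended without replicate 1 of LTR5HS Sa, and that of IFIT5 without replicate 1 of nontarget Sp. No direction turned under these alternatives. GBP1, MX1, DHX58 and OAS3 were not tested when every library had to hold at least 10 counts.

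The genes that rose lay nearer to targeted loci, defined as below, than those that fell. The 12 guides were matched to hg38 without mismatches, and 648 loci held at least 2 different guides within 1 kb. These loci are sequence matches, not measured binding, and were not restricted to LTR5HS. The authors report that the array also brought dCas9 to many of the related LTR5A, LTR5B and LTR5 elements. Of the 43 genes, 8 started within 200 kb of a locus with at least 2 guides (18.6%), against 12.9% of all genes tested. Counting only genes of the set that were tested with CRISPRa, 7 of 31 did. All 5 genes that rose were among the 8: GBP1 at 1.81 kb, MX1 at 4.73 kb, STAT2 at 40.4 kb, EPSTI1 at 48.3 kb and USP18 at 197.4 kb. None of the 11 that fell was, the nearest being IFI35 at 348 kb, and their median distance was 1622 kb. The other 3 were EIF2AK2 at 68.7 kb and ISG20 at 97.7 kb, neither of which passed, and MX2, which was not tested. For MX1 the locus, chr21:41421023-41421508, lies within the gene, and its distance was taken from the GENCODE start at 41426239. The RefSeq window searched for the response element, chr21:41420308-41420607, lies nearer to that locus. Over all genes, 33.5% of those that rose and 3.98% of those that fell started within 200 kb. Among the genes of the set beyond 200 kb, 24 were tested, with 0 higher, 11 lower and a median log2 fold change of -0.95, whereas beyond 200 kb 12% of all genes tested rose and 13.7% fell. USP18 lies close to the limit: within 100 kb the set held 4 of the 5 genes that rose, and within 400 kb all 5 and 2 of those that fell. In all, 7 of the 43 genes lay within 100 kb and 12 within 400 kb, against 7.55% and 21.5% of all genes tested. The gap also depends on asking for at least 2 guides. Counting every match of at least 1 guide, 13 of the 43 genes lay within 200 kb, against 17.9% of all genes tested. Among the 13 were all 5 that rose and 2 that fell: IFITM1 at 111.9 kb and IFITM3 at 118.7 kb, nearer than USP18.

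**Figure D3:**
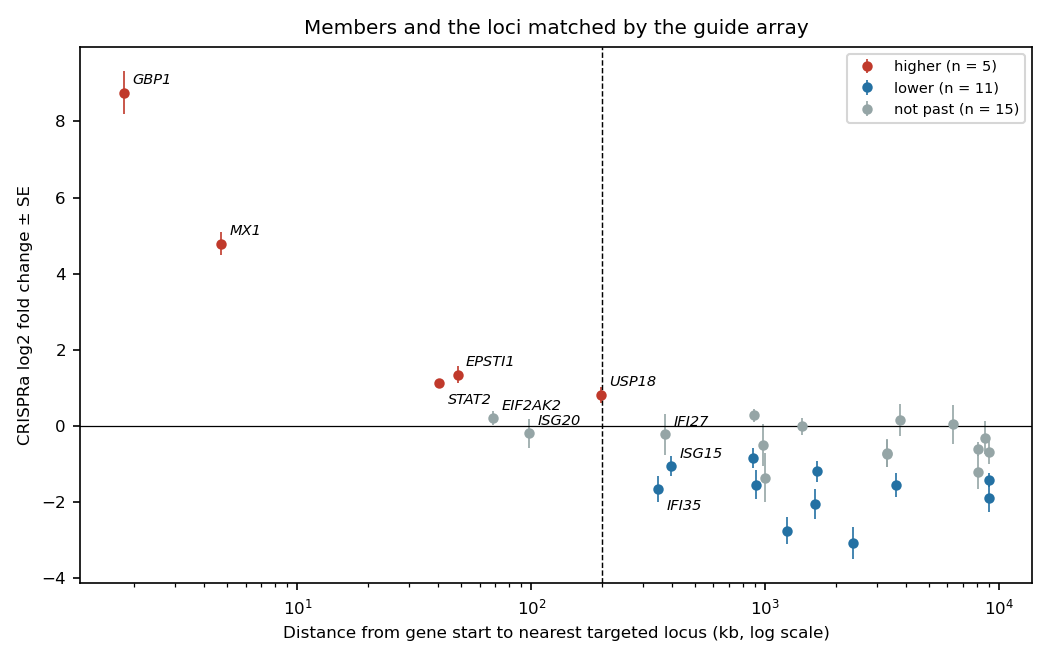
CRISPRa log2 fold change with its SE against the distance from the gene start to the nearest locus matched by at least 2 guides, in kb on a log scale, for the 31 genes tested, with a dashed line at 200 kb. The 5 genes that rose lie to the left of the line and the 11 that fell to its right, from 348 kb outwards.

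Around GBP1, 3 neighbours that started within 200 kb of its own start rose as well: its paralogs GBP2 (log2 fold change 5.05) and GBP3 (1.86), and RBMXL1 (0.81). Another 2 were tested and did not pass. Over all genes tested within 200 kb of a targeted locus, 41.0% rose and 3.85% fell. Beside MX1, the protease gene TMPRSS2 rose by 3.85 on the log2 scale, and no other neighbour was tested. Beside STAT2, by contrast, none of 14 tested neighbours rose and COQ10A fell by 0.87. No tested neighbour of USP18 or EPSTI1 rose, and MICAL3 beside USP18 fell by 0.51. The tested neighbours of USP18 started 237 to 323 kb from a targeted locus, outside the 200 kb window.

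With CRISPRi, none of the 25 genes tested passed, in a comparison where 2.77% of all genes did. The smallest edgeR adjusted p was 0.123. At an unadjusted p below 0.05 there were 6 genes, all lower with recruitment, against 13.6% of all genes, 7.76% lower: EIF2AK2, DTX3L, IFIT1, IFITM1, ISG20 and USP18, and DESeq2 also called 0, against 3.12% of all genes. Log2 fold changes ran from -1.19 to 0.81, with a median of -0.10 against 0.000596 over all genes. GBP1 and MX1 were too low to be tested, at 0 to 7 counts and 0 to 14 counts in a dCas9-KRAB library. EIF2AK2 was at 37.5 and 27.4 CPM with recruitment, 54.1 and 41.7 CPM with LTR5HS Sa, and 58.8 and 40.5 CPM with nontarget Sp. The recruitment libraries were the lowest, and within each replicate number recruitment lay below both controls. Its log2 fold change of -0.58 ± 0.19 did not pass without pairing (edgeR adjusted p = 0.197) and did with the replicate number as a block (-0.59, edgeR adjusted p = 0.0195), where 3.27% of all genes passed. The 5 tested genes within 200 kb of a locus all had values below 0, from -1.19 for USP18 to -0.02 for STAT2, without passing, and of the 20 beyond it 11 lay above 0 and 9 below.

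The effect of recruitment differed between the fusions for 16 of the 30 genes in which the difference could be estimated, 5 higher and 11 lower with dCas9-VPR, against 26.0% of all genes, 13.7% higher and 12.3% lower. Of these 16, 12 were also called with CRISPRa. The replicate block added IFI6, PARP9 and DDX58, with 36.2% of all genes passing. For STAT2 the difference was 1.15 ± 0.12 on the log2 scale (SE, edgeR adjusted p = 2.58e-05), with dCas9-KRAB libraries between 82.0 and 90.2 CPM in every array. For USP18 it was 2.03 ± 0.32 (SE, edgeR adjusted p = 0.000541), and for BST2 it was -2.08 ± 0.16 (SE, edgeR adjusted p = 2.08e-06). For MX1 it could not be estimated, because both dCas9-KRAB LTR5HS Sa libraries held 0 counts.

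The control arrays were not equal for these genes. With dCas9-VPR, 3 of 31 genes differed between LTR5HS Sa and nontarget Sp, all lower with LTR5HS Sa, in a comparison where 5.24% of all genes differed, 3.09% lower. They were BST2 (-1.13, edgeR adjusted p = 0.001), HERC6 and DTX3L. With the replicate number as a block the count was 13, 12 of them lower with LTR5HS Sa, against 13.6% of all genes, 7.79% lower. The 11 genes that fell with CRISPRa summed to 104 and 82.7 CPM with recruitment, 220 and 208 CPM with LTR5HS Sa, and 354 and 380 CPM with nontarget Sp. In 8 of these 11 the means followed that order. Against LTR5HS Sa alone, all 11 genes that fell and all 5 that rose were called the same way, and EIF2AK2 (higher) and HERC5 (lower) were called as well, where 18.8% of all genes were higher and 16.1% lower. Against nontarget Sp alone, 10 of the 11 and 4 of the 5 were, without IFIT5 and USP18 (edgeR adjusted p = 0.0697 and 0.0616). HERC6, DTX3L, PARP9 and IFIT2 were lower in that comparison as well, so that 4 genes rose and 14 fell, where 16.4% of all genes were higher and 13.5% lower. With dCas9-KRAB, BST2 was the 1 gene that differed between the control arrays (edgeR adjusted p = 0.031, with 0.612% of all genes different and 0.312% higher), and it was higher with LTR5HS Sa. The replicate block gave 2, adding ISG15, against 4.71% of all genes.

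Without recruitment, the set was higher in dCas9-VPR than in dCas9-KRAB lines. Between control libraries, 20 of 31 genes differed, 17 higher and 3 lower with dCas9-VPR, against 59.1% of all genes, 28.8% higher and 30.3% lower. IFI6 was higher by 2.62 on the log2 scale (edgeR adjusted p = 7.79e-07), OAS3 by 3.58 (edgeR adjusted p = 8.65e-07), and ISG15 by 1.44 (edgeR adjusted p = 3.71e-06). IFITM1 went the other way, at 10.9 CPM per kb with dCas9-VPR and 91.2 CPM per kb with dCas9-KRAB, as did TRIM22 and HERC5, although HERC5 did not pass with library totals in place of TMM factors. MX1 is among the 17, and its value depends on libraries with 0 counts. Each fusion line was made once before the arrays were added, so fusion and parental line cannot be told apart, and the embryonal carcinoma markers differed between the same libraries.

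**Figure D4:**
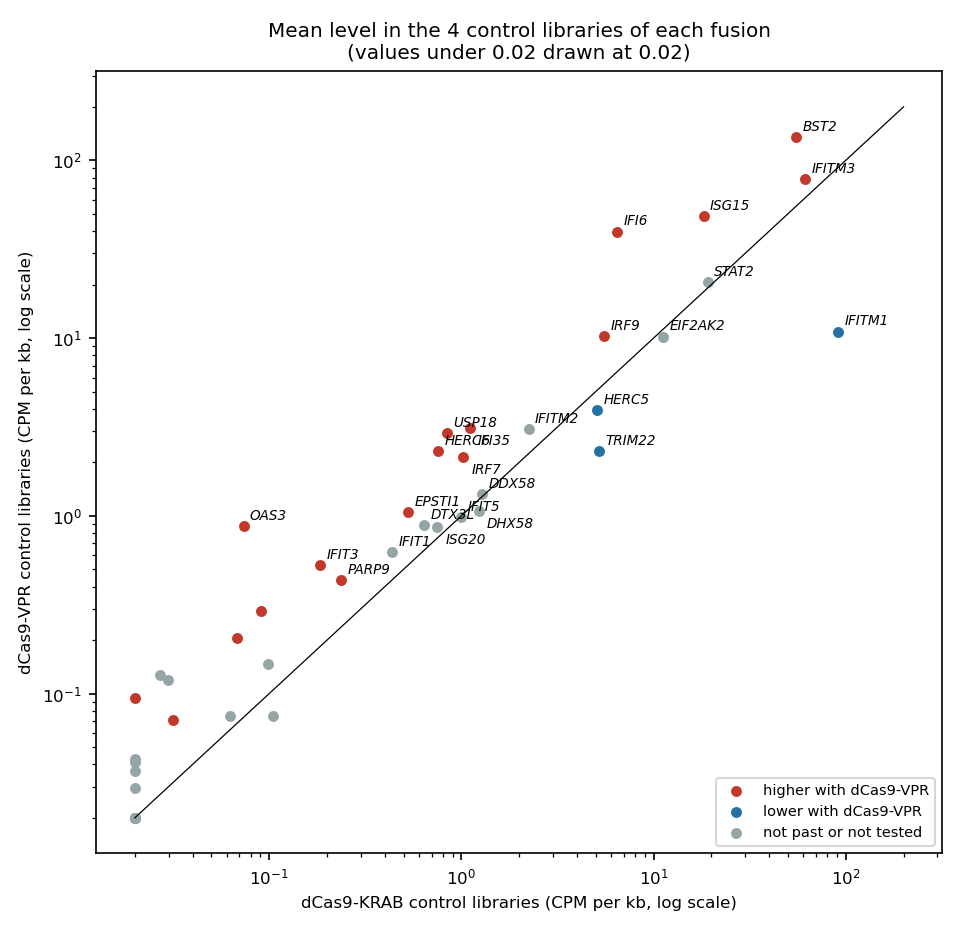
Mean level in the 4 control libraries of dCas9-VPR against that in the 4 of dCas9-KRAB, in CPM per kb on log scales, with a line of equality and colours for genes that differed by edgeR. Of the 31 genes tested, 17 were higher and 3 lower with dCas9-VPR, and IFITM1 lies farthest below the line.

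The rest of the interferon pathway was read from lists of other genes. Of 21 interferon genes none was high enough to be tested, 14 had 0 counts in every library including IFNB1, and the highest count in a library was 6. Among 6 receptor chains, IFNAR2 rose (log2 fold change 0.70, edgeR adjusted p = 0.0113) and IL10RB, shared with interferon-lambda and interleukin-10 receptors, fell (-1.0, edgeR adjusted p = 0.00777). Among 10 JAK and STAT pathway genes, the feedback inhibitor SOCS3 (1.33, edgeR adjusted p = 0.0041) and JAK1 (0.54, edgeR adjusted p = 0.0331) rose. Of 14 nucleic acid sensing genes tested, 3 rose and 0 fell: TLR3 (2.55, edgeR adjusted p = 0.000124), MB21D1, which encodes cGAS (1.15, edgeR adjusted p = 0.00368), and IKBKE (0.87, edgeR adjusted p = 0.00378). TLR3 starts 18.2 kb from a targeted locus, MB21D1 353 kb and IKBKE 1165 kb. On the same list, MYD88 at 2.78 kb and MAVS at 187.5 kb were not called. IRF1 had a log2 fold change of -0.74 and did not pass (edgeR adjusted p = 0.16). Of 7 genes that keep self nucleic acid from being sensed, RNASEH2A (-0.62) and RNASEH2B (-1.01), subunits of RNase H2, fell, and ADAR (-0.13) did not pass. On the receptor, JAK and STAT, sensing and self nucleic acid lists, 21.4% to 33.3% of genes tested were called with CRISPRa. Over all genes the share was 28.0%, 15.7% higher and 12.3% lower. With CRISPRi, MB21D1 was the 1 gene called on these lists, at -0.83 (edgeR adjusted p = 0.0449), where 2.77% of all genes passed. The lists held 6 receptor, 10 JAK and STAT, 13 sensing and 7 self nucleic acid genes tested with CRISPRi.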

How the data were processed

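The authors deposited raw counts per gene. After cutadapt trimming, read pairs were placed on the genome by HISAT2, barring mixed and discordant pairs, and assigned to genes by featureCounts. The submitters' processing notes name CASAVA 1.8, cutadapt 1.8.1, HISAT2 2.1.0, featureCounts 1.4.6-p2 and hg38. The annotation, the strand setting and the handling of multi-mapped reads are not given in the sources used here. The authors describe the replicates as biological and independent.

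Counts were tested over all genes with edgeR 4.0.16 in R 4.3.3 (filterByExpr, TMM, quasi-likelihood F test, Benjamini-Hochberg adjustment, threshold 0.05): 2 recruitment against 4 control libraries within a fusion, and 6 groups over 12 libraries for the other contrasts. The tests were checked on simulated libraries, drawn independently and with a common mean for both control arrays. That check does not cover deviations shared by replicate number, or differences between control arrays or lines. By replicate number, deviations from line means correlated within a fusion at r = 0.194 to 0.511 over 16673 genes. Across fusions they correlated at 0.0508 to 0.496, so the structure was not particular to a fusion. CPM used TMM library sizes. The SE of a log2 fold change was derived from edgeR's output, as its absolute value divided by the square root of the F statistic. Alternatives were DESeq2 1.42.0, its size factors, other count filters, the replicate block, each control array alone, each library left out and, added after seeing the data, library totals without TMM and other distances. The genes and lists were chosen with earlier results of these data known. Full values are given for genes called with either fusion and the 5 with the highest mean CPM in control libraries, not scaled to length; from other lists, up to 3 called genes each plus IRF1 and IFNB1, with 1 item not reported here. Other genes named, such as neighbours, were chosen after their values were seen. With 3 counts as the floor, depth limits cover counting error only.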

Additional observations from a re-analysis of the deposited data

Results flagged for a closer look

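Among 34 sets of 4 control libraries, 2 held a library far from the other 3, and chance gives about 1 in 20. GBP1 was at 1.20 CPM in replicate 1 of dCas9-VPR LTR5HS Sa, against 0.0497 to 0.155 CPM in the others. IFIT1 was at 2.67 CPM in replicate 1 of dCas9-KRAB LTR5HS Sa, against 1.82 to 1.93 CPM.

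For 16 genes the effect of recruitment differed between the fusions by edgeR's interaction test, given as dCas9-VPR minus dCas9-KRAB on the log2 scale. It was higher with dCas9-VPR for GBP1 (9.23), EPSTI1 (2.08), USP18 (2.03), STAT2 (1.15) and EIF2AK2 (0.81). The value for GBP1 rests on 0 to 7 counts in each dCas9-KRAB library. It was lower for OAS3 (-3.56), DHX58 (-2.99), IFI35 (-2.19), BST2 (-2.08), IFITM1 (-1.46), TRIM22 (-1.42), IFITM2 (-1.27), IFITM3 (-1.24), HERC6 (-1.22), ISG15 (-0.90) and HERC5 (-0.74). Of these, EIF2AK2, IFITM2, HERC5 and HERC6 passed in neither fusion alone, and EIF2AK2 did not pass this test with library totals in place of TMM factors.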

How the results depend on the processing

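Of 821 alternative values for single genes, 784 kept their side of the threshold, 20 were no longer past it and 17 newly were. The sign differed in 31, none of them in a gene called in that comparison. Leaving out 1 library gave 7 to 17 genes changed with CRISPRa (4 to 5 higher, 3 to 12 lower) and 0 with CRISPRi. It gave 11 to 15 genes that differed between the fusions (3 to 6 higher, 7 to 11 lower). Between the control arrays it gave 1 to 4 genes with dCas9-VPR (0 to 1 higher, 1 to 4 lower) and 0 to 1 with dCas9-KRAB (0 to 1 higher). Between the fusions' controls it gave 16 to 21 (14 to 18 higher, 2 to 3 lower). Requiring at least 10 counts in every library left fewer genes tested: 3 higher with CRISPRa, 2 higher by the interaction, 0 between the dCas9-KRAB control arrays, and 13 between the fusions' controls, 10 of them higher. The replicate block gave 1 gene, lower, with CRISPRi (EIF2AK2), 13 between the dCas9-VPR control arrays (1 higher, 12 lower) and 2, both higher, between the dCas9-KRAB arrays, and moved no other count by over 1.5 times. For the dCas9-VPR control arrays, DESeq2 gave 5 (1 higher), no filter 7, all lower, and library totals without TMM 1, lower. For the dCas9-KRAB arrays, DESeq2 and no filter gave 2 each, both higher. The cause of these shifts was not tested. Library totals moved the median of all genes with CRISPRa from -0.02 to -0.154, and the split of all calls from 2552 higher and 1996 lower to 2089 and 3071. Loci with at least 1 guide lay within 200 kb of 13 genes rather than 8.

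With 2 recruitment libraries per fusion, small changes may have been missed, most of all in the 12 genes below the filter.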
